A study of Mus musculus with 18 samples.

Results

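The genes described here license and run DNA replication. They are the 6 subunits of the Mcm2 to Mcm7 helicase, its loading factors Cdc6 and Cdt1, the Cdt1 inhibitor geminin (Gmnn) and the sliding clamp Pcna. They were chosen by RefSeq identifier and not by a measured value, though with earlier results of these data known. Mcm2 is NM_008564, Mcm3 NM_008563, Mcm4 NM_008565, Mcm5 NM_008566, Mcm6 NM_008567, Mcm7 NM_008568, Pcna NM_011045, Cdc6 NM_011799, Cdt1 NM_026014 and Gmnn NM_020567. All 10 were present among the 26823 transcripts of the count files, and all 10 passed the filter on low counts.

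Single mouse 2-cell embryos were sequenced, 9 from 3 wild-type fathers (fathers 1, 2 and 3, called WT) and 9 from 3 Parg(110)-/- fathers (fathers 6, 7 and 8, called Parg(110)), with 3 embryos per father. Parg(110)-/- males lack the long isoform of poly(ADP-ribose) glycohydrolase, the enzyme that removes poly(ADP-ribose) chains, and the study used them as a model of altered histone retention in sperm. The genotype is that of the father. All mothers were wild-type 129SVE females, so each embryo of a Parg(110)-/- father carried 1 mutant allele itself. The embryo's own genotype and that of its father therefore cannot be told apart here. An embryo is named here by father and number, so that 8-2 is embryo 2 of father 8.

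In G1, the origin recognition complex, Cdc6 and Cdt1 load Mcm2 to Mcm7 as a ring on DNA, which licenses an origin to fire once in the coming S phase. Geminin binds Cdt1 and blocks a further round of loading, and Pcna then tethers the polymerases to the template. The oocyte stores transcripts of many of these genes, and the 2-cell stage is when maternal transcripts are cleared and the embryo's own genome is switched on in earnest. In somatic cells, transcription of these genes is a classical output of E2F factors in late G1.

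Libraries held 2852858 to 13355161 counts in WT (median 7594021) and 3560501 to 12497060 in Parg(110) (median 7191377), so that 1 count was worth 0.0749 to 0.351 CPM in WT and 0.0800 to 0.281 CPM in Parg(110). CPM is the count scaled to a fixed total per file, and limits drawn from counts cover counting error only, since amplified cDNA is not a set of independent molecules. Embryos of one father share that father, so p-values over embryos measure the spread between embryos and not between fathers. Parg itself (NM_011960) lay at 74.7 ± 32.1 CPM in WT and 46.4 ± 18.3 CPM in Parg(110) (SD, n = 9), a log2 fold change of -0.67 ± 0.34 (SE) that did not pass the test (adjusted p = 0.872, edgeR), and as the mothers were wild type this checks the labels only in part. The sum of 13 oocyte markers was high in all embryos, at 1833 to 3251 CPM in WT and 1402 to 4832 CPM in Parg(110). Of the 13, 8 reached 10 counts in every embryo, and Mos had counts in 10 of the 18 embryos. For the embryo's own 2-cell transcripts, 7 of 8 markers were in the files. Their sum was 21.0 to 67.9 CPM in WT and 13.1 to 105 CPM in Parg(110). Of these 7, only 1 reached 10 counts in every embryo. It was Tdpoz4, with means of 23.5 CPM in WT and 28.5 CPM in Parg(110). Cumulus and granulosa markers stayed at or below 9.82 CPM, with 6 of 8 at 0 everywhere, and sperm markers at or below 3.52 CPM, with 4 of 6 at 0 everywhere. The sum of the 4 oviduct markers ranged from 27.3 to 163 CPM in WT and from 20.0 to 487 CPM in Parg(110). Most of the WT sum was Epcam, which had counts in all 18 embryos and means of 92.2 CPM in WT and 63.1 CPM in Parg(110). Ovgp1, the oviduct glycoprotein, had a WT mean of 0.694 CPM and reached 428 CPM in embryo 6-2 and 114 CPM in embryo 6-3. Leaving these 2 embryos out was tried for the comparison of all Parg(110) with all WT embryos, where 0 licensing genes were called with or without them. Their part in the results by father and by single embryo was not tested.

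Promoter sequence is shown first, because an E2F octamer is what most of these genes share outside the expression data. RefSeq promoter windows (GRCm38.p6, strain C57BL/6J, 250 bases before to 50 after the start site) were given for 8 of the 10 genes, all but Mcm4 and Gmnn. They were searched on both strands for the octamers TTTCCCGC, TTTCGCGC, TTTGCCGC and TTTGGCGC, which may overlap each other. A match was found in 6 of the 8 genes. By window, Mcm7 having 2, it was 6 of 9 (66.7%), against 742 of all 32817 promoter windows (2.26%). The pentamer CCAAT, the core of the NF-Y box, was found in 6 of the 8 genes. By window it was 7 of 9 (77.8%), against 37.4% of all windows. Capitals mark the E2F octamers in the stretches below, read 5′ to 3′ on the gene's strand, and GCGGGAAA is an octamer read from the opposite strand.
Mcm3, chr1:20820266-20820295, minus strand: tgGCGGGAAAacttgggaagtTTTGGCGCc
Mcm5, chr8:75109331-75109392, plus strand: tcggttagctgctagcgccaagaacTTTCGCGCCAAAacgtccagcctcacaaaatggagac
Mcm6, chr1:128359720-128359840, minus strand: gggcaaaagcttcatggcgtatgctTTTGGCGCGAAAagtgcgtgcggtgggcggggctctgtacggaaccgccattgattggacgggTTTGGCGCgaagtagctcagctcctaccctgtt
Mcm7, chr5:138171849-138171878, minus strand: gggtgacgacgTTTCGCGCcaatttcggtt
Cdc6, chr11:98907988-98908045, plus strand: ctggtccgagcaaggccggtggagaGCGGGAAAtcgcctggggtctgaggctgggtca
Cdt1, chr8:122568035-122568064, plus strand: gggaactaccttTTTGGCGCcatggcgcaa

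In Mcm5 and Mcm6 2 octamers on opposite strands overlapped in 1 run of capitals, at -153 and -149 from the start site in Mcm5 and at -110 and -106 in Mcm6. Mcm6 held another match at -47, Mcm7 another at -165 (not printed), and Cdc6 its match at -138. In Mcm3, Mcm7 and Cdt1 a match lay just downstream of the start. The windows of Mcm2 and Pcna held none of these letters, which says nothing about the factor. A match is a description of the sequence, and binding was not measured.

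The first comparison asked whether embryos of Parg(110)-/- fathers differed from embryos of WT fathers in these transcripts. None of the 10 licensing genes passed the threshold, an adjusted p below 0.1 by edgeR's quasi-likelihood test over all transcripts. Mcm2 was the 1 member with an unadjusted p under 0.05, at a mean of 37.8 CPM in Parg(110) against 18.2 CPM in WT. The background was 0 of 15333 transcripts called (0%), with 889 (5.8%) at an unadjusted p under 0.05, so 1 of 10 members is near the background. DESeq2 called 38 transcripts (0.248%) and none of the 10 members. Over the members the median log2 fold change was -0.11, with 3 of 10 above 0, and over all transcripts it was -0.02, with 49.0% above 0.

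**Figure D1:**
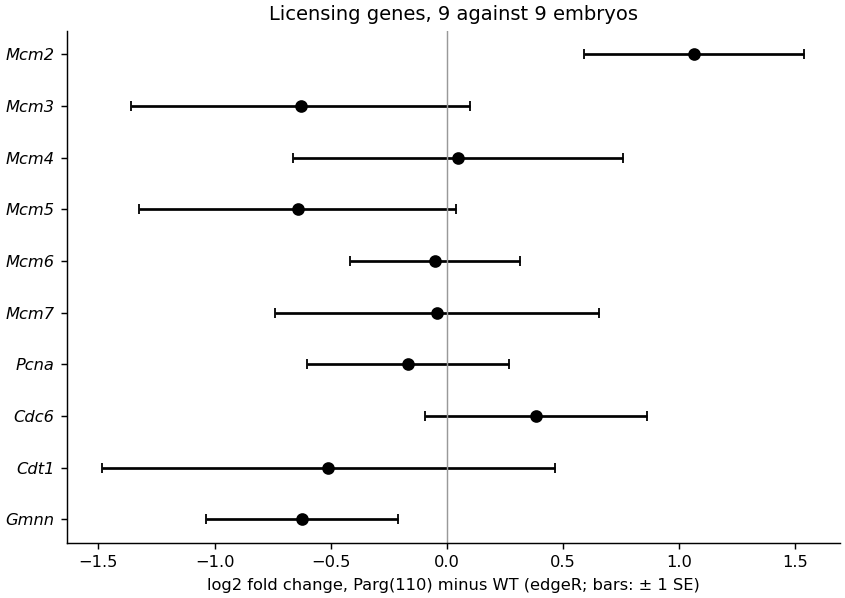
Log2 fold change of each licensing gene, Parg(110) minus WT, 9 against 9 embryos, from edgeR; points are estimates and bars are ± 1 SE. Mcm2 has the highest estimate, 1.07. Its bar and that of Gmnn (-0.62 ± 0.41) lie clear of 0, though neither gene passed the test. The estimates of Mcm4, Mcm6 and Mcm7 lie within 0.06 of 0.

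Mcm2, a subunit that also carries a histone-binding tail, was at 2.80 CPM in its lowest WT embryo, 23.3 in the median and 29.4 in the highest, and at 19.0, 31.2 and 62.7 CPM in Parg(110). The groups overlapped, but 5 Parg(110) embryos lay above the highest WT embryo and 4 WT embryos lay below the lowest Parg(110) embryo. The log2 fold change was 1.07 ± 0.47 (SE, adjusted p = 0.809, edgeR). Its lowest levels, 2.80 and 3.46 CPM, were in WT embryos 2-3 and 1-3, from different fathers.

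By father, the Mcm2 means were 9.71, 17.7 and 27.3 CPM for fathers 1, 2 and 3 and 32.5, 43.3 and 37.6 CPM for fathers 6, 7 and 8. All 3 Parg(110) means therefore lay above all 3 WT means. Mcm2 was the 1 member of 10 whose father means did not overlap between genotypes, in either direction, and of all transcripts tested 1554 (10.1%) were of that kind, so that 1 of 10 is near the background.

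Mcm3 and Mcm5 had wider spreads than Mcm2. Mcm3 was at 1.11, 22.1 and 164 CPM in WT (lowest, median and highest embryo) and at 1.11, 15.4 and 71.3 CPM in Parg(110), with a log2 fold change of -0.63 ± 0.73 (SE, adjusted p = 0.971, edgeR). The WT embryo at 164 CPM was 3-1, and without it the log2 fold change was 0.092 (an alternative chosen after seeing the data). With that embryo kept, limma with the father as a random effect gave 0.047. The direction of Mcm3 therefore changed with 1 library and with the model. Mcm5 was at 0.527, 20.3 and 31.2 CPM in WT and at 1.37, 9.71 and 32.9 CPM in Parg(110), with a log2 fold change of -0.64 ± 0.68 (SE, adjusted p = 0.971, edgeR). For both genes the groups overlapped.

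Mcm4, Mcm6 and Mcm7, which form the catalytic core of the ring, had estimates close to 0, and the SE of Mcm6 was the smallest of the 10. Mcm4 was at 1.91, 7.77 and 33.4 CPM in WT and 1.57, 10.9 and 27.7 CPM in Parg(110), a log2 fold change of 0.05 ± 0.71 (SE). Mcm6 was at 20.0, 42.0 and 56.5 CPM in WT and 18.02, 33.8 and 68.0 CPM in Parg(110), a log2 fold change of -0.05 ± 0.37 (SE). Mcm7 was at 3.29, 13.6 and 45.8 CPM in WT and 0, 14.3 and 36.8 CPM in Parg(110), a log2 fold change of -0.04 ± 0.70 (SE).

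The SEs of Mcm4 and Mcm7 were about 0.7 on the log2 scale. An SE does not mark the largest change these data allow, and a p above the threshold does not show equal levels. The signs of all 3 estimates turned when a single father was left out, as the closing section gives. The exons of Mcm7 overlap those of Ap4m1 by 247 bases and Cops6 by 64 bases on the opposite strand, and the host gene also holds Mir25 and Mir93. Whether counting used strand is not given in the sources used here, so reads of these neighbours in the Mcm7 count cannot be told apart.

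**Figure D2:**
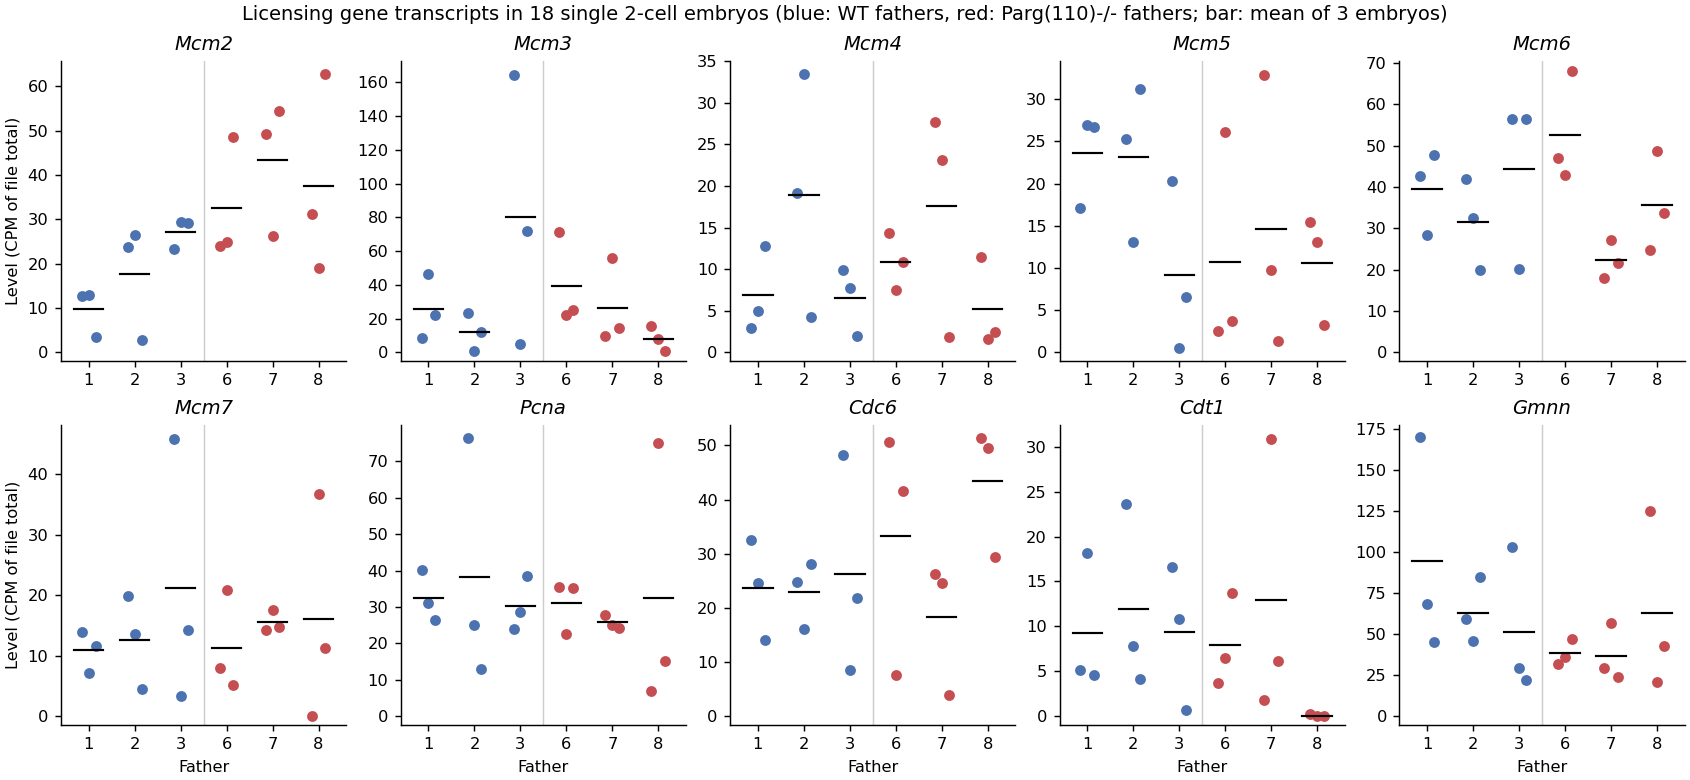
Level of each licensing gene (CPM of the file total, vertical axis, a separate scale per panel) in every embryo, by father (horizontal axis); points are embryos, bars are means of 3 embryos, blue WT and red Parg(110). The 3 embryos of father 8 sit at or near 0 for Cdt1, and WT embryo 3-1 stands above the rest for Mcm3 and Mcm7.

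The loading factors did not pass the test between the groups. Cdc6, the ATPase that recruits Cdt1 and the helicase to the origin complex, was at 8.56, 24.6 and 48.3 CPM in WT and 3.87, 29.5 and 51.4 CPM in Parg(110), a log2 fold change of 0.38 ± 0.48 (SE, adjusted p = 0.972, edgeR). Another RefSeq transcript of Cdc6, NM_001025779, was counted as well, with 4632 counts over the 18 embryos against 3945 for NM_011799. How many reads the 2 share was not measured. Cdt1, which carries the helicase to the origin, was at 0.675, 7.86 and 23.7 CPM in WT and 0, 3.76 and 30.9 CPM in Parg(110), a log2 fold change of -0.51 ± 0.97 (SE, adjusted p = 0.986, edgeR).

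Geminin was at 22.1, 59.4 and 170 CPM in WT and 20.9, 36.3 and 125 CPM in Parg(110), a log2 fold change of -0.62 ± 0.41 (SE, adjusted p = 0.927, edgeR). Its highest level was in WT embryo 1-1, and 1 of 9 Parg(110) embryos (8-1) lay above the WT median. Pcna was at 12.97, 28.7 and 76.4 CPM in WT and 7.02, 24.98 and 74.9 CPM in Parg(110), a log2 fold change of -0.17 ± 0.44 (SE, adjusted p = 0.996, edgeR). One embryo in each group, 2-1 and 8-2, carried the high end of Pcna.

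The second comparison took each Parg(110)-/- father on his own, with his 3 embryos set against all WT embryos, since sperm of different males can differ. The Cdt1 transcript was at or near 0 in all 3 embryos of father 8. It was at 0.281 CPM in embryo 8-1, from 1 count, and at 0 in 8-2 and 8-3, which allows up to 0.523 and 0.417 CPM (3 counts). The other 15 embryos held 0.675 to 30.9 CPM, so the measured values of father 8 lay below all of them. The gap to the lowest, WT embryo 3-3 with 6 counts, is narrow, since 3 counts in 8-1 would be 0.843 CPM. Summed over embryos, Cdt1 had 1 count of 16489696 for father 8 and 797 of 72038438 for WT, a ratio of 182 (95% interval 32.6 to 7215, exact, counting error only). Against fathers 6 and 7 together, with 583 counts of 51770527, the ratio was 186 (33.2 to 7347).

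edgeR did not call Cdt1 in father 8 (adjusted p = 0.556), and none of the 10 genes passed for any of the 3 fathers. The background was 1 of 14377 transcripts (0.00696%) for father 6, 0 of 14039 (0%) for father 7 and 0 of 13936 (0%) for father 8. At an unadjusted p under 0.05, Cdt1 was the 1 of 10 members in father 8, against 1246 transcripts (8.94%). DESeq2 called Cdt1 in father 8 (adjusted p = 0.00137), 1 of 10 members, against 289 of 13936 transcripts (2.07%).

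The father means of Cdt1 were 9.33, 11.9 and 9.38 CPM for fathers 1, 2 and 3, 7.97 and 12.9 CPM for fathers 6 and 7, and 0.0936 CPM for father 8. In this it was the 1 of 60 pairs of gene and father in which all 3 embryos lay below every other embryo, and none lay above. Of all tested transcripts, 25 (0.163%) lay below every other embryo in father 8. Across the 6 fathers, this share ran from 0.0391% (father 1) to 0.202% (father 7). The share lying above every other embryo ran from 0.0652% (father 7) to 0.307% (father 3). The spread of the other fathers was wide: embryo 7-2 was at 30.9 CPM and embryo 7-1 at 1.78 CPM, and WT embryo 3-3 was at 0.675 CPM. The libraries of 8-1, 8-2 and 8-3 held 3560501, 5737818 and 7191377 counts and 12326, 12094 and 12678 detected transcripts, low in the range of 11823 to 16436 over the 18 embryos. Over those 18, the Cdt1 level went with detected transcripts (r = 0.47) and with the log2 total (r = 0.38), given as a description. The 3 embryos of father 8 are themselves part of both correlations. The part of depth and detection in the low Cdt1 level was not tested. Other members were uneven in these embryos. Cdc6 was at 51.4, 49.5 and 29.5 CPM in 8-1, 8-2 and 8-3 and Mcm6 at 24.7, 48.6 and 33.8 CPM, while Mcm7 was at 0 in 8-1, Mcm3 at 1.11 CPM in 8-3 and Pcna at 7.02 CPM in 8-1, its lowest level.

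A test for differences among the fathers of one genotype gave Cdt1 the smallest p of the members within Parg(110) (adjusted p = 0.597, edgeR). No transcript was called within WT (0%) or within Parg(110) (0%) by edgeR, and 1260 (8.22%) had an unadjusted p under 0.05 within Parg(110). DESeq2's likelihood ratio test called Cdt1 (adjusted p = 0.0464), 1 of 10 members, against 132 transcripts (0.861%). Within WT the smallest p of a member was that of Mcm3 (adjusted p = 0.980, edgeR).

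Single embryos were also set against the 9 WT embryos, where the spread comes from the WT embryos alone. Shares over all tests pool the 9 fits and were not taken for the embryos of father 8 alone. With his 3 embryos together, 8.94% of all transcripts had an unadjusted p under 0.05 by edgeR. edgeR called none of the 10 members in any of the 9 fits, against 97 calls in 165913 tests (0.0585%). Of 90 tests of a member in an embryo, 4 had an unadjusted p under 0.05, against 5.72% of all tests, and all 4 were in father 8. They were Mcm7 in 8-1 (adjusted p = 0.632, edgeR), Cdt1 in 8-2 (adjusted p = 0.598) and 8-3 (adjusted p = 0.690), and Mcm3 in 8-3 (adjusted p = 0.690). DESeq2 called 5 of the 90, against 6884 of 165913 tests (4.15%): those 4 and Cdc6 in 7-3 (adjusted p = 0.0793).

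Mcm7 was at 0 in embryo 8-1, which allows up to 0.843 CPM. The other embryos of father 8 held 36.8 and 11.3 CPM. Cdc6 was at 3.87 CPM in 7-3, its lowest level, and at 26.3 and 24.7 CPM in the other embryos of that father.

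On mm9, the build of the files, the genes lie apart from each other. Positions are from GENCODE vM1, and exon numbers are those of its transcript with the longest coding sequence for each gene. Mcm2 spans bases 88833469 to 88848774 of chromosome 6 (minus strand, 16 exons), Mcm4 bases 15623990 to 15637493 of chromosome 16 (minus, 16 exons) and Mcm7 bases 138605811 to 138613650 of chromosome 5 (minus, 15 exons). Chromosome 1 carries both Mcm3, at 20793055 to 20810359 (minus, 17 exons), and Mcm6, at 130228168 to 130256233 (minus, 17 exons). Chromosome 8 carries both Mcm5, at 77633427 to 77652338 (plus, 17 exons), and Cdt1, at 125091915 to 125097028 (plus, 10 exons). Pcna spans 132074898 to 132079050 of chromosome 2 (minus, 6 exons), Cdc6 98769115 to 98785254 of chromosome 11 (plus, 12 exons) and Gmnn 24843714 to 24853792 of chromosome 13 (minus, 7 exons).

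The genes were next compared per length. Lengths were those of the GENCODE vM1 transcript with the longest coding sequence under each gene's name, 1127 bases (Gmnn, 7 exons) to 3589 bases (Mcm4, 16 exons). They were not matched to the counted RefSeq transcripts. Mean levels over the 18 embryos, in CPM per kb, were 51.4 for Gmnn, 20.9 for Pcna, 12.99 for Mcm6, 10.9 for Cdc6, 10.7 for Mcm3, 8.32 for Mcm2, 4.93 for Mcm7, 4.47 for Mcm5, 3.93 for Cdt1 and 3.07 for Mcm4. None of the 9 steps in this order was larger than both SDs of its neighbours. Gmnn was above Pcna in 16 of 18 embryos and Pcna above Mcm6 in 14 of 18, while Mcm7 lay above Mcm5, Mcm5 above Cdt1 and Cdt1 above Mcm4 in 10 of 18 each. Mcm3 lay above Mcm2 in 8 of 18, and its median of 6.25 CPM per kb was below the 7.60 of Mcm2, the reverse of their means. With the longest annotated transcript in place of the one with the longest coding sequence, Mcm6 came to 8.66 and Cdc6 to 5.83 CPM per kb. With the shortest, Mcm7 came to 10.8 CPM per kb, which would place it above Mcm3 and Mcm2.

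Embryos differed from each other in these genes by several fold. Mcm6 spanned 3.77-fold from its lowest to its highest embryo, the narrowest of the 10, and Mcm3 spanned 149-fold. The coefficient of variation over the 18 embryos was 39.0% for Mcm6, lower than in all but 7.2% of the tested transcripts, and 124% for Mcm3. The median over 5173 transcripts of similar level (a mean of 10 to 70 CPM) was 78.2%. Counts were found in all 18 embryos for 8 of the 10 genes (80.0%), against 6897 of 15333 tested transcripts (45.0%). These 2 shares are not matched for level, on which detection depends. By mean level the 10 genes ranked above 47.1% (Cdt1) to 81.3% (Gmnn) of tested transcripts. A share for transcripts of similar level was not taken. Levels of Mcm6 and Pcna went with library size (r = 0.59 and 0.62 with the log2 total, over 18 embryos, a description), so depth moved with them.

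The 6 helicase subunits act in equal number in the ring, but their measured transcript levels per kb were unequal within each embryo. CPM per kb of amplified cDNA does not count molecules, and the part of amplification in these differences was not tested. Their summed level was 66.5 to 320 CPM in WT (median 125) and 98.3 to 167 CPM in Parg(110) (median 144). Per kb, the highest subunit in an embryo exceeded the lowest by 2.71 to 56.6 times in WT (median 18.2) and by 4.604 to 50.0 times in the 8 Parg(110) embryos with counts for all 6 (median 27.4). Which subunit led changed between embryos. Mcm6 led in 4 WT and 3 Parg(110) embryos, Mcm3 in 3 and 2, Mcm2 in 1 and 4, and Mcm5 in 1 WT embryo.

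The share of Mcm2 in the summed CPM per kb was 2.55, 11.8 and 41.7% in WT (lowest, median, highest) and 13.1, 27.7 and 51.6% in Parg(110). The share of Mcm5 was 0.737, 15.2 and 38.6% in WT and 1.16, 5.57 and 20.8% in Parg(110). That of Mcm6 was 18.4, 30.2 and 46.2% against 13.5, 29.7 and 44.9%. Shares of one sum are tied to each other, and no test was made of them.

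**Figure D3:**
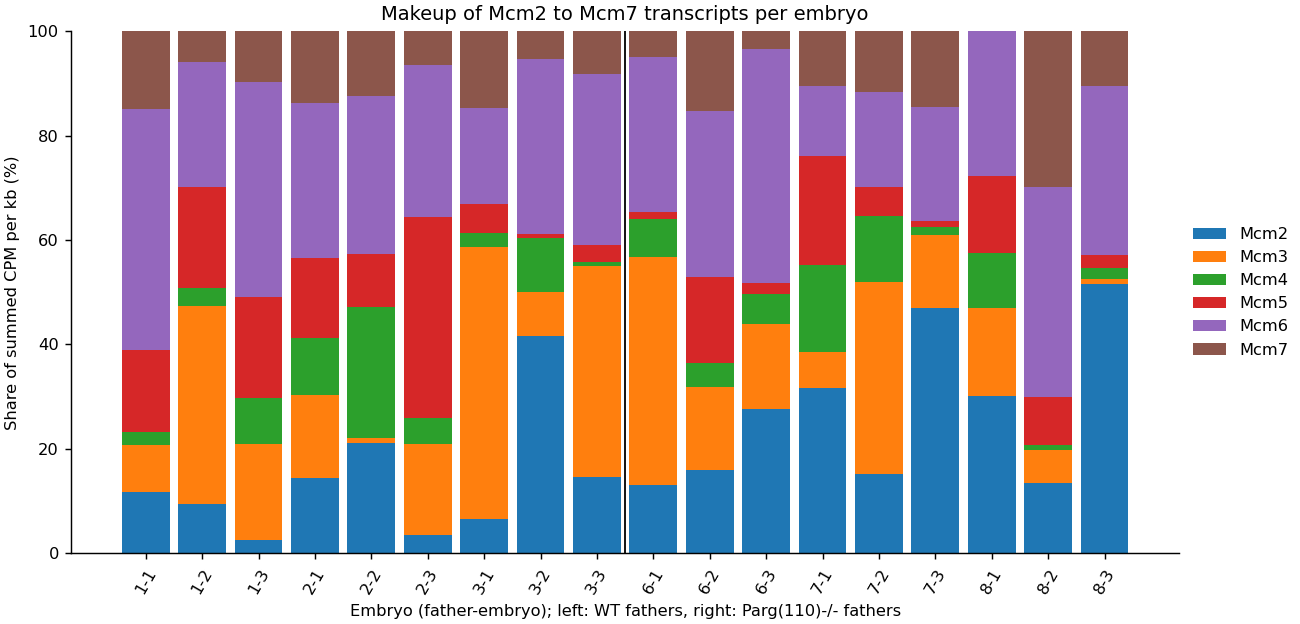
Share of each subunit in the summed CPM per kb of Mcm2 to Mcm7 (percent, vertical axis) in each of the 18 embryos, WT left of the line and Parg(110) right of it. No embryo has 6 equal shares, and embryo 8-1 lacks Mcm7.

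The subunits did not rise and fall together from embryo to embryo. Over 18 embryos, Pearson correlations of log2(CPM + 1) between the 15 pairs of Mcm2 to Mcm7 had a median of 0.05 and ran from -0.53 (Mcm2 with Mcm5) to 0.40. Over the 45 pairs of all 10 genes the median was 0.07, and over all pairs of tested transcripts 0.01. The values of an embryo share its library and depth. The 5 transcripts most like the mean of Mcm2 to Mcm7, of 7486 with a mean of at least 10 CPM, were Cct5 (r = 0.75), Samd4b (0.72), Lyrm4 (0.71), Dpcd (0.71) and Mapk3 (0.71), over 18 embryos. These are the highest of many values and are given as a description.

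The wider replication machinery was followed through a list of 69 further genes, among them origin recognition, GINS, polymerase, clamp loader and E2F genes. All 69 were in the files, as 88 transcripts, of which 85 were tested. None was called higher or lower by edgeR or DESeq2, and 1 was higher and 2 were lower at an unadjusted p under 0.05, 3 of 85 against 5.8% of all transcripts. The median log2 fold change of the list was -0.05, near the -0.02 over all transcripts.

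E2f1, an E2F activator, had the smallest p on the list. It was at 163, 237 and 370 CPM in WT (lowest, median, highest) and 103, 147 and 223 CPM in Parg(110), with 6 Parg(110) embryos below the lowest WT embryo and 6 WT embryos above the highest Parg(110) embryo. The log2 fold change was -0.63 ± 0.22 (SE, adjusted p = 0.529, edgeR). Chaf1b, a subunit of the chromatin assembly factor that deposits histones behind the fork, was at 5.48, 9.43 and 61.0 CPM against 0.281, 3.87 and 16.6 CPM, a log2 fold change of -1.91 ± 0.80 (SE, adjusted p = 0.763, edgeR).

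E2f5, an E2F repressor, was at 7.01, 29.3 and 101 CPM in WT and 14.8, 65.1 and 143 CPM in Parg(110), a log2 fold change of 1.06 ± 0.46 (SE, adjusted p = 0.794, edgeR). Orc2 (NM_001025378), a subunit of the origin recognition complex, was at 47.6, 69.9 and 109 CPM against 29.2, 105 and 202 CPM, a log2 fold change of 0.55 ± 0.31 (SE, adjusted p = 0.891, edgeR). It was 0.31 without embryos 6-2 and 6-3 and 0.21 without father 6. For all 4 genes the groups overlapped, E2f1 the least.

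**Figure D4:**
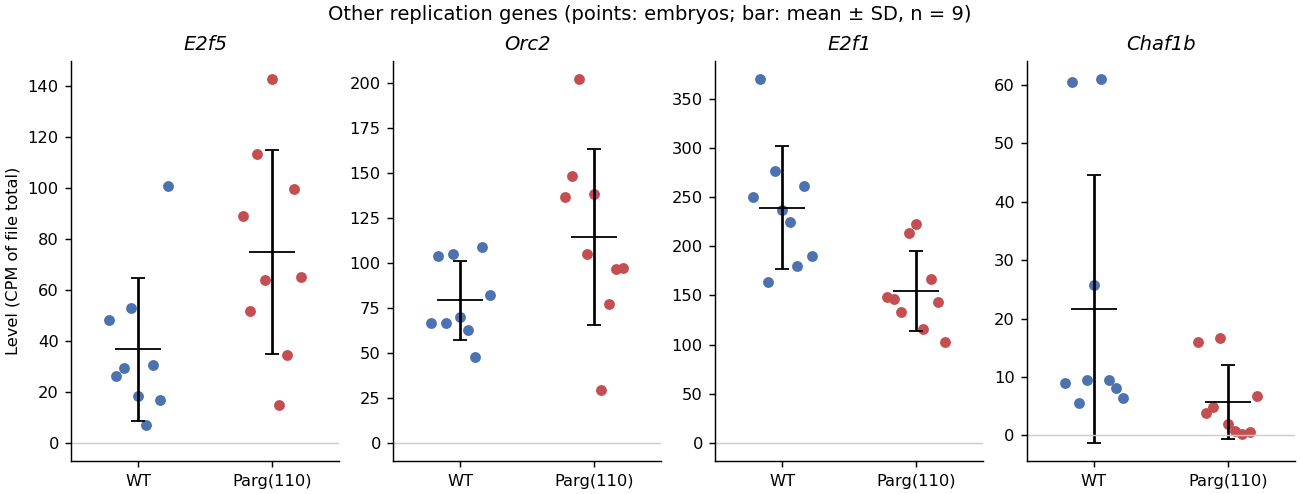
Level (CPM of the file total, vertical axis, a separate scale per panel) of the 4 named genes of the wider replication list in WT and Parg(110) embryos; points are embryos and bars are the mean ± SD, n = 9. E2f1 embryos lie at 163 to 370 CPM in WT and 103 to 223 CPM in Parg(110).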

How the data were processed

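The authors amplified cDNA of single 2-cell embryos, aligned reads to mm9 with RUM allowing up to 1 mismatch, kept reads that mapped to 1 place, and deposited raw counts per RefSeq transcript, unnormalized. The submitters' notes name DESeq 1.10.0. Whether counting used strand is not given in the sources used here. Embryos were grouped by the father's genotype in the labels. Counts were tested with edgeR 4.0.16 (TMM, quasi-likelihood, R 4.3.3) over transcripts that reached 10 counts in 3 or more embryos (1 for single-embryo fits), with Benjamini-Hochberg adjustment over all transcripts and the study's threshold of 0.1. SE is the log2 fold change over the square root of F. Alternatives used DESeq2 1.42.0, limma 3.58.1, other filters and left-out fathers. The scripts were tested on simulated data. Named genes are the 10 members, Parg, from the replication list the 2 smallest p-values in each direction, and the 5 transcripts most like the Mcm mean. Members and lists were chosen with earlier results of these data known. Symbols came from a RefSeq table (GRCm38.p6) for 26136 of 26823 transcripts. Embryo numbers did not pair the samples.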

Additional observations from a re-analysis of the deposited data

Results flagged for a closer look

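In a group of 9 embryos, 8 of 32 sets of values had an embryo that stood apart from the others by Dixon's criterion, where chance gives about 1 in 20 for values with a normal spread. CPM values need not be of that kind, and their rate was not measured. WT embryo 3-1 stood apart in Mcm3 (164 CPM), Mcm7 (45.8 CPM) and the summed Mcm2 to Mcm7 level (320 CPM), of which Mcm3 is a part. Pcna stood apart in WT embryo 2-1 (76.4 CPM) and in Parg(110) embryo 8-2 (74.9 CPM). Cdt1 stood apart in Parg(110) embryo 7-2 (30.9 CPM), Gmnn in Parg(110) embryo 8-1 (125 CPM) and E2f5 in WT embryo 3-3 (101 CPM). All were high values.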

How the results depend on the processing

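Of 9 counts of calls, 5 were 0 under each alternative run for them. DESeq2, no TMM, no filter and a threshold of 0.05 were run for all 9; the stricter filter, sums per father, limma, the block and left-out fathers or embryos for the 3 counts between all Parg(110) and all WT embryos alone. DESeq2 gave 38 transcripts between the groups, 1 licensing gene in father 8, 5 in single embryos and 1 among the Parg(110) fathers, where edgeR gave 0. Leaving out 1 father gave 0 to 5 transcripts between the groups, the 5 without Parg(110) father 6. A replicate block for the embryo number gave 0 calls; embryos of 1 number did not deviate together (median correlation 0.0056 over 27 pairs, and -0.0016 over 54 pairs of other numbers). The log2 fold changes of 4 of the 6 Mcm genes and of Cdt1 turned sign under some alternative, 14 of 225 values in all; the cause was not tested, except that fewer samples entered where a father or embryo was left out. Mcm3 was 0.047 with limma and the father as a random effect, 0.092 without WT embryo 3-1 (an alternative chosen after seeing the data, as is leaving out embryos 6-2 and 6-3), and -1.14 to 0.40 without 1 father, 0.40 without WT father 3. Mcm4 was -0.03 with the replicate block and -0.45 to 0.74 without 1 father (-0.18 without father 1, -0.23 without father 3 and -0.45 without father 7). Mcm6 was 0.031 without embryo 3-1 and -0.40 to 0.21 without 1 father (0.033 without father 3, 0.21 without father 7). Mcm7 was 0.38 without embryo 3-1 and -0.21 to 0.26 without 1 father (0.26 without father 3, 0.10 without father 6). Cdt1 was 0.081 without father 8 and as low as -1.31 without another father (father 7), and -1.78 with limma and the father as a random effect. Mcm2 stayed between 0.77 and 1.44, with adjusted p between 0.221 and 1.00. Mcm2 to Mcm5, Mcm7 and Cdt1 had under 10 counts in some embryos, and the part of depth in this was not tested.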
